A study of Homo sapiens with 24 samples.

Results

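The genes described here are the HOX cluster genes, chosen as every row of the authors' deposited tables whose gene symbol is HOX, a cluster letter from A to D and a number. The rule found 34 rows with 33 different symbols among 39772 gene IDs listed in any of the 4 tables, with 17 rows in the LAN5 table, 21 in the IMR5 table, 33 in the SK-N-FI table and 21 in the SK-N-BE(2) table. They comprise 6 HOXA, 9 HOXB, 9 HOXC and 10 HOXD rows, against 39 HOX genes in GENCODE 29. HOXA2, HOXA4, HOXA6, HOXA7, HOXA9 and HOXB1 met the rule in none of the tables used here. The symbol HOXD4 stands on 2 rows, and the one with the ID ENSG00000278500 is called AC009336.2 here, its GENCODE 29 name, since it is a longer transcript unit that spans HOXD4 and part of HOXD3 on the same strand.

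Polyadenylated RNA was sequenced from 4 human neuroblastoma cell lines, each in a group treated with 1 µM GSK-J4 for 72 hours and a group without treatment. LAN5 and IMR5 are MYCN-amplified and labelled sensitive to the compound, SK-N-FI is MYCN wildtype and labelled sensitive, and SK-N-BE(2) is MYCN-amplified and labelled resistant. Each of the 8 groups has 3 libraries, 24 in all; each line is a single established line, and the labels do not say whether the 3 libraries of a group came from separate cultures, so a p-value here reflects library-to-library spread that may be technical. GSK-J4 enters cells and inhibits KDM6A and KDM6B, the demethylases that remove trimethylation from lysine 27 of histone H3.

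HOX genes encode homeodomain transcription factors that give cells their position along the body axis. They lie in 4 clusters in which the order of the genes follows the order of their expression, with low-numbered paralogs used toward the head and high-numbered paralogs toward the tail. Silent HOX clusters are a textbook target of Polycomb repression: the EZH2-containing complex trimethylates lysine 27 of histone H3 there, KDM6A and KDM6B take the mark off, and Trithorax-type complexes hold active HOX genes open. Neuroblastoma arises from sympathetic precursors of the trunk neural crest.

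The deposited files hold, for each gene and line, a mean normalized count over all 6 libraries of the line, a log2 fold change with its standard error (SE) and a Benjamini-Hochberg adjusted p from the DESeq2 Wald test; they hold no value for a single library, so depth is unknown and no spread between libraries can be given. Fold changes are read as GSK-J4 over untreated. That sign was set from BBC3 in the sensitive lines and from MT2A and SLC30A1 in SK-N-BE(2), and the SK-N-FI table was assigned by the likeness of its short name and by elimination. In the table so assigned, the authors' deposited mean of MYCN was 116 normalized counts, against 11397 in IMR5, 24408 in LAN5 and 38908 in SK-N-BE(2). Of 10 neuroblastoma markers, 9 or 10 had a mean of at least 10 in every line. Levels compared across lines are scaled to CPM, with the summed means of all genes of a table as the total. A list of 8 immune and endothelial markers summed to between 1.19 and 9.87 CPM, and PTPRC had a mean of 2.27 or less in each authors' deposited table.

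Promoter windows of 4 members are shown because they belong to the genes whose response or level stands at the centre of what follows: HOXD8 and HOXC4 were called in both LAN5 and IMR5, HOXD10 was called in IMR5, and HOXD13 had the highest level of any member. Each window is taken from RefSeq on GRCh38.p14, runs from 250 bases before the annotated start to 50 after it, and lies on the plus strand at chr2:176129455-176129754 for HOXD8, chr12:54016638-54016937 for HOXC4, chr2:176116528-176116827 for HOXD10 and chr2:176092471-176092770 for HOXD13. The table lists the HOXC4 window for HOXC5 as well; no window was matched for HOXD9, HOXC6, HOXC8, HOXC10, HOXC13, HOXB2 or HOXB9, which were also called. Sequences read 5′ to 3′ in lower case, with every CpG dinucleotide in capitals.
HOXD8: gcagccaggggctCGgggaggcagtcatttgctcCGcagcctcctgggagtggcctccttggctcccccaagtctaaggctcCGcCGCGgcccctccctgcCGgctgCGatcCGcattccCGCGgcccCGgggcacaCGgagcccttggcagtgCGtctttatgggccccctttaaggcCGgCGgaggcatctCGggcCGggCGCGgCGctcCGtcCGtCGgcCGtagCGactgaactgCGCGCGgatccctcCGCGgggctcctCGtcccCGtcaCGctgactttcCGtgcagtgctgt
HOXC4: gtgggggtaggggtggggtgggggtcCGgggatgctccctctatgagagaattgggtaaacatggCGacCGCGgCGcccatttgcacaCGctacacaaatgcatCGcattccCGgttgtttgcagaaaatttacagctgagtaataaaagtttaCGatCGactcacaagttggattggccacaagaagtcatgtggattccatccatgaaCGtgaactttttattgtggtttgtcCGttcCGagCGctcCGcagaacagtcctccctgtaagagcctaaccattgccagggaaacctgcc
HOXD10: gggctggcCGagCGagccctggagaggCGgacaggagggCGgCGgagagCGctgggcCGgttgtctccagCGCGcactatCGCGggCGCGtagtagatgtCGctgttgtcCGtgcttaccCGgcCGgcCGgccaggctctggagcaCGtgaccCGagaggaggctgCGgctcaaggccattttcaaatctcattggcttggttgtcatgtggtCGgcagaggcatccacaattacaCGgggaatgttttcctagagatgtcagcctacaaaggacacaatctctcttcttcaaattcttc
HOXD13: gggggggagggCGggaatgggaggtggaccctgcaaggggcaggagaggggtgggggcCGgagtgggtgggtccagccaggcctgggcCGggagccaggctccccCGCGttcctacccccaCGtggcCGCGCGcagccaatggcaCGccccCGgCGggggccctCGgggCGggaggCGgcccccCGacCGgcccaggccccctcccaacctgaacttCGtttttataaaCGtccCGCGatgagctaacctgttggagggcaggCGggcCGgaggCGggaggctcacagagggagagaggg

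The HOXD8 window held 34 CpGs, HOXD13 24, HOXD10 23 and HOXC4 15, against a median of 22 over the 27 windows of 20 HOX genes and of 14 over all 35116 windows in the table. The windows were searched on both strands for CCAAT, for TATAAA and for TGATTNAT, a PBX-HOX composite motif, each on its own, so that overlapping matches to different motifs all count. CCAAT was found in HOXC4, HOXD10 and HOXD13 and in 66.7% of HOX windows, against 34.6% of all windows. TATAAA was found in HOXD13 and in 18.5% of HOX windows, against 11.5% of all windows. TGATTNAT was in none of the 4 printed windows, in 7.41% of HOX windows and in 2.82% of all windows. The HOX windows that held it were those of HOXA2 and HOXD11. HOXD11 was called in IMR5, and its window is not printed here. The HOXD8 window held none of the 3 motifs. Most HOX windows belong to HOXA genes, several of them to other starts of HOXA3, and the window shared by HOXC4 and HOXC5 counts for each. The 20 genes include HOXA2, HOXA4, HOXA6, HOXA7, HOXA9 and HOXB1, which are not among the members. The HOX shares and median are thus mainly those of HOXA windows.

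The first question was which clusters each line expresses. HOXC and HOXD genes carried most HOX transcript in every line, HOXA genes were at or near the bottom of the tables everywhere, and HOXB genes reached a mean of 10 only in SK-N-FI. A member was counted as expressed at a mean of at least 10 normalized counts, which held for 9 members in LAN5 cells, 11 in IMR5 cells, 16 in SK-N-FI cells and 13 in SK-N-BE(2) cells. The tables were normalized separately, so levels set across lines are given in CPM, and no test was made between them. The summed HOX level was 66.4 CPM in LAN5 cells, 116 in IMR5 cells, 115 in SK-N-FI cells and 163 in SK-N-BE(2) cells. The HOXD cluster made up 66.3% of that sum in LAN5 and 75.0% in IMR5. The HOXC cluster was the larger part in the other lines, SK-N-FI with 52.0% and SK-N-BE(2) with 66.2%.

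**Figure D1:**
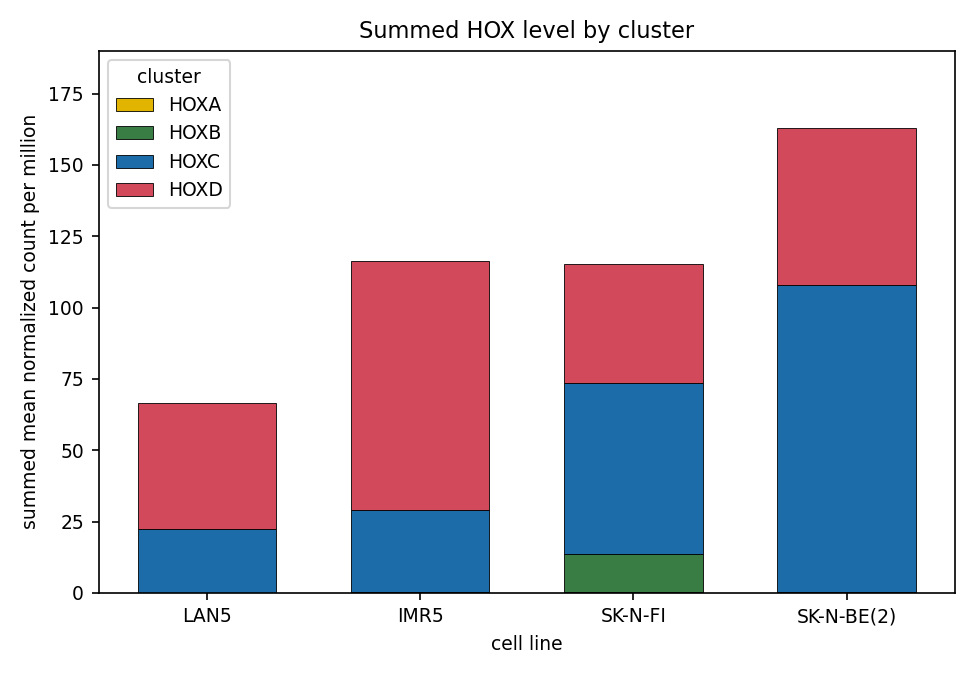
Summed level in CPM of the HOX members of each cluster (stacked colours, vertical axis) in the 4 lines, over GSK-J4 and untreated libraries together. HOXC and HOXD fill the bars of LAN5, IMR5 and SK-N-BE(2), HOXB adds 13.4 CPM in SK-N-FI, and HOXA is too low to see.

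No HOXA gene was expressed by this measure. HOXA13, which patterns distal limb and the hindgut, had the highest HOXA mean, 4.59 normalized counts for IMR5 and 1.46 for SK-N-FI per the authors' deposited tables. The other 5 HOXA members had means under 1 where they were listed, and no HOXA row was listed for LAN5 or SK-N-BE(2).

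HOXB was a feature of SK-N-FI, the line without MYCN amplification. HOXB2, a hindbrain paralog, had a mean of 143.6 normalized counts there in the authors' deposited table, HOXB3 had 16.3, HOXB7 had 15.8 and HOXB5 had 12.5. HOXB4, HOXB6, HOXB8, HOXB9 and HOXB13 lay between 1.34 and 8.46 in the same table. In the other lines no HOXB mean exceeded 1.75, and the IMR5 table listed no HOXB row. With 1 line of that MYCN status, MYCN status and the line itself cannot be told apart.

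The 5 members expressed in all 4 lines were HOXC4, HOXC6, HOXD8, HOXD9 and HOXD10. HOXD8, a trunk paralog, had the smallest ratio of highest to lowest level among them, with 14.3 CPM in IMR5, 18.1 in SK-N-BE(2), 21.4 in LAN5 and 22.5 in SK-N-FI. HOXD9, the first of the posterior paralog groups in its cluster, stood at 9.57 CPM in IMR5, 12.8 in SK-N-FI, 13.9 in SK-N-BE(2) and 16.7 in LAN5. HOXC4, an anterior paralog, stood at 14.7 CPM in LAN5 cells, 14.96 in IMR5 cells, 24.6 in SK-N-FI cells and 38.9 in SK-N-BE(2) cells. HOXC6, a thoracic-level paralog, ran from 4.38 in IMR5 and 5.51 in LAN5 to 14.9 in SK-N-FI cells and 17.2 in SK-N-BE(2) cells. Since no spread between libraries was available, it cannot be said which neighbours in these orders differ.

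The levels of HOXC8, HOXC9, HOXC10 and HOXC11 ranged widely over the lines, with no test made between them. HOXC8 had 0.437 CPM in LAN5 cells, 5.34 in IMR5 cells, 9.22 in SK-N-FI cells and 15.7 in SK-N-BE(2) cells. HOXC9, known for a part in retinoic acid-induced differentiation of neuroblastoma cells, followed the same order of lines, from 0.632 CPM in LAN5 and 3.13 in IMR5 to 8.19 in SK-N-FI cells and 12.8 in SK-N-BE(2) cells. HOXC10, a lumbar-level paralog, was not listed for LAN5 and had 0.562 CPM in IMR5 cells, 2.39 in SK-N-FI cells and 17.5 in SK-N-BE(2) cells. HOXC11 was expressed only in SK-N-BE(2), with an authors' deposited mean of 52.3 normalized counts, and was otherwise listed only in SK-N-FI with a mean of 0.609. HOTAIR, a long noncoding RNA read from the opposite strand that overlaps HOXC11, had a mean of 176 in SK-N-BE(2) and means from 1.77 to 2.40 in the other authors' deposited tables. Paralog groups 9 to 13 made up 4.34% of the HOXC sum of LAN5, 12.9% of that of IMR5, 18.0% of that of SK-N-FI and 31.4% of that of SK-N-BE(2).

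SK-N-BE(2) also stood apart by LUM and DCN, both matrix proteoglycans on a 10-gene list of fibroblast and muscle markers. That list summed to 2109 CPM there, against 92.2 in IMR5, 96.1 in LAN5 and 187 in SK-N-FI. LUM and DCN supplied 1242 and 739.6 CPM of the sum in SK-N-BE(2). The rest of the list supplied less there than the whole list did in SK-N-FI. All 10 neuroblastoma markers had a mean of at least 10 in the same line. The part of cell state or cell type in the HOXC levels of SK-N-BE(2) was not tested, and in bulk RNA fewer cells of a type and less RNA per cell cannot be told apart.

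Posterior HOXD genes gave IMR5 its own pattern. HOXD13, the last gene of the cluster and a regulator of distal limb and genital development, had a mean of 985 normalized counts for IMR5 per the authors' deposited tables, 137 for SK-N-BE(2), 10.2 for SK-N-FI and 8.44 for LAN5. Per kb of exon, HOXD13 in IMR5 had the highest level of any member in any line, 22.6 CPM per kb. HOXD10 was also higher in IMR5 and SK-N-BE(2), with 9.42 and 10.6 CPM, than in LAN5 with 2.96 and SK-N-FI with 1.80. HOXD11, which lies between those genes, had means of 34.3 and 24.4 in IMR5 and SK-N-BE(2), and under 10 in LAN5 and SK-N-FI. Paralog groups 9 to 13 made up 81.9% of the HOXD sum in IMR5, 62.9% in SK-N-BE(2), 46.1% in LAN5 and 36.7% in SK-N-FI. The leading member per kb in LAN5 was HOXD9 with 8.93 CPM per kb, while HOXC4 led in SK-N-FI with 9.01 and in SK-N-BE(2) with 14.3.

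**Figure D2:**
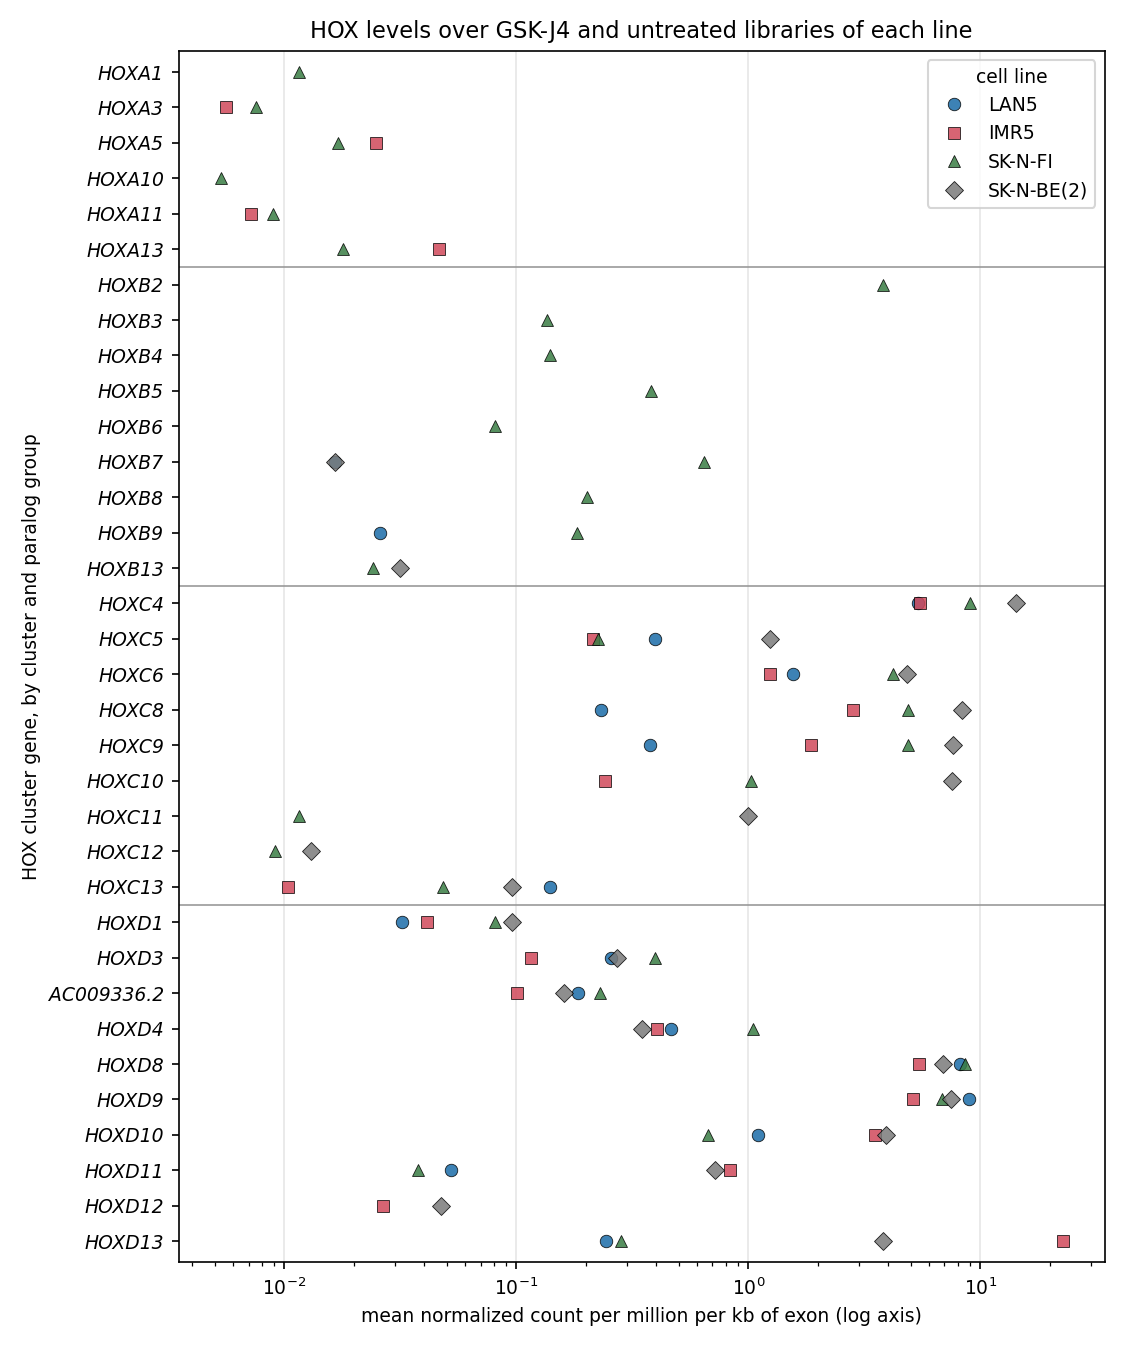
Level in CPM per kb of exon (log axis) of each HOX row, over GSK-J4 and untreated libraries of a line together; colours and shapes mark the lines, and a missing mark means that the line's table has no such row. HOXC4, HOXC6, HOXD8, HOXD9 and HOXD10 have marks toward the right in all 4 lines, HOXB2 only in SK-N-FI, and HOXD13 in IMR5 stands farthest right at 22.6.

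The annotated spans of HOXC4 and HOXC6 overlap each other, and HOXC4 also overlaps HOXC5, and HOXC6 also HOXC8 and HOXC9. HOXB7 overlaps HOXB8 and HOXB9, HOXB3 overlaps HOXB4, HOXB5 and HOXB6, and HOXD3, HOXD4 and AC009336.2 overlap on the same strand, as do HOXD10 and HOXD11. How reads in such stretches were assigned is not given in the sources used here, so the values of overlapping members are uncertain in how they divide. Whether counting used the strand is not given either, so reads of members and of antisense transcripts over them, such as HOTAIR over HOXC11, cannot be told apart.

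The second question was whether these genes, whose clusters classically carry trimethylated lysine 27 when silent, move when the demethylases are inhibited. No measure of the mark itself was used here. In LAN5, HOXD9, HOXC4, HOXD8 and HOXC6 fell with GSK-J4 and HOXC13 rose. That is 5 of the 14 members with an adjusted p, or 35.7%, with 4 lower and 1 higher; among all genes tested in LAN5, 41.7% were called, 19.2% lower and 22.5% higher. The median log2 fold change was -0.47 over the 14 members and 0.093 over all genes tested in that table. All 3 members with a mean of 100 to 1000 were called, against 63.1% of all genes in that range.

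HOXD9 had the largest fall in LAN5, with an authors' deposited log2 fold change of -1.13 ± 0.131 (SE) at a mean of 258 and an adjusted p of 5.72e-17. HOXC4 fell by 0.87 on the log2 scale (± 0.139, adjusted p = 2.59e-09) in the same authors' deposited table, and HOXD8 fell by 0.52 (± 0.115, adjusted p = 2.73e-05). HOXC6 fell by 0.50 (± 0.203, adjusted p = 0.0358) in the authors' deposited table, a call that was lost when fold changes were centred on the table's median, with -0.41 and an adjusted p of 0.0919. The genes that fell were 4 of the 5 members expressed in every line, and 2 of them, HOXC4 and HOXC6, overlap. Those 4 were also the only members of LAN5 with a mean of at least 50. The fifth member expressed in every line, HOXD10, had -0.44 ± 0.272 and an adjusted p of 0.196 at a mean of 45.7 in the authors' deposited table.

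HOXC13, a paralog best known from hair and nail, rose in LAN5 by 2.08 ± 0.537 on the log2 scale with an adjusted p of 0.000388, at a mean of only 5.20 normalized counts in the authors' deposited table. The remaining 9 tested members of LAN5, HOXD10 included, did not pass the test. HOXC8 and HOXC9 had means of 6.76 and 9.76 there, with deposited log2 fold changes of -0.54 ± 0.497 and -0.83 ± 0.465 in the authors' table.

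In IMR5 the called members all rose: HOXD8, HOXC4, HOXD10, HOXD13, HOXC10, HOXD11 and AC009336.2. They are 7 of 16 tested members, or 43.8%, with 0 lower, against 44.1% of all genes tested in IMR5, 22.6% higher and 21.6% lower. The median was 0.41 over the 16 members and 0.016 over all genes tested. Of 6 members with a mean of 100 to 1000, 4 were called, against 65.4% of all genes in that range.

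HOXD8 rose in IMR5 by 0.75 ± 0.131 on the log2 scale (adjusted p = 7.22e-08), and HOXC4 rose by 0.67 ± 0.132 (adjusted p = 1.67e-06), both in the authors' deposited table. In the posterior HOXD genes, HOXD10 rose by 0.65 ± 0.154 (adjusted p = 9.95e-05) and HOXD13 by 0.30 ± 0.0862 (adjusted p = 0.00189) in the authors' deposited table. HOXD11 rose by 0.89 ± 0.303 (adjusted p = 0.00861) at a mean of 34.3 in that authors' deposited table, and it overlaps HOXD10. HOXC10 and AC009336.2 had the largest rises, 1.53 ± 0.460 (adjusted p = 0.00272) and 1.42 ± 0.479 (adjusted p = 0.00814), at means of 10.9 and 6.90 in the authors' deposited table. HOXD9, the leading fall of LAN5, had -0.18 ± 0.145 with an adjusted p of 0.347 in the authors' deposited IMR5 table, and HOXC9 had -0.48 ± 0.252 with an adjusted p of 0.113.

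In SK-N-FI, 3 of 22 tested members were called, or 13.6%, all higher, against 31.6% of all genes tested there, 16.8% higher and 14.8% lower. HOXC8 rose by 0.76 ± 0.225 on the log2 scale (adjusted p = 0.00348) at a mean of 148 in the authors' deposited table. HOXB2, the leading HOXB gene, rose by 0.67 ± 0.216 (adjusted p = 0.00871), and HOXB9 rose by 1.33 ± 0.422 (adjusted p = 0.00722) at a mean of 7.60 in the authors' deposited table. The best expressed member there, HOXC4, had -0.28 ± 0.135 with an adjusted p of 0.0968, and HOXD8 had -0.29 ± 0.162 with an adjusted p of 0.167 in the authors' deposited table. Of 7 members with a mean of 100 to 1000, 2 were called, against 48.0% of all genes in that range. The median over the 22 members was 0.0035, and over all genes tested 0.010.

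In SK-N-BE(2), 0 of 11 tested members passed the DESeq2 test, where 2.48% of all genes tested were called, 1.62% higher and 0.858% lower. The lowest adjusted p of a member was 0.701, for HOXD8 with 0.12 ± 0.0768 in the authors' deposited table. None of the 21 listed members had an unadjusted p under 0.05 in the DESeq2 test, against 1456 of the 29328 genes listed for that line. No test was made between these shares. The 11 deposited log2 fold changes lay between -0.12 and 0.12, but values in that authors' deposited table are pulled toward 0 far more strongly than in the others, since its largest standard error was 0.0828, against 0.428 for SK-N-FI, 0.490 for IMR5 and 0.539 for LAN5. Of 9 members with a mean of 100 to 1000, 0 were called, against 2.03% of all genes in that range. The other 10 members of this line had no adjusted p, HOXD3, HOXD4, HOXD11 and AC009336.2 among them; the lowest mean with an adjusted p in that table was 26.2.

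**Figure D3:**
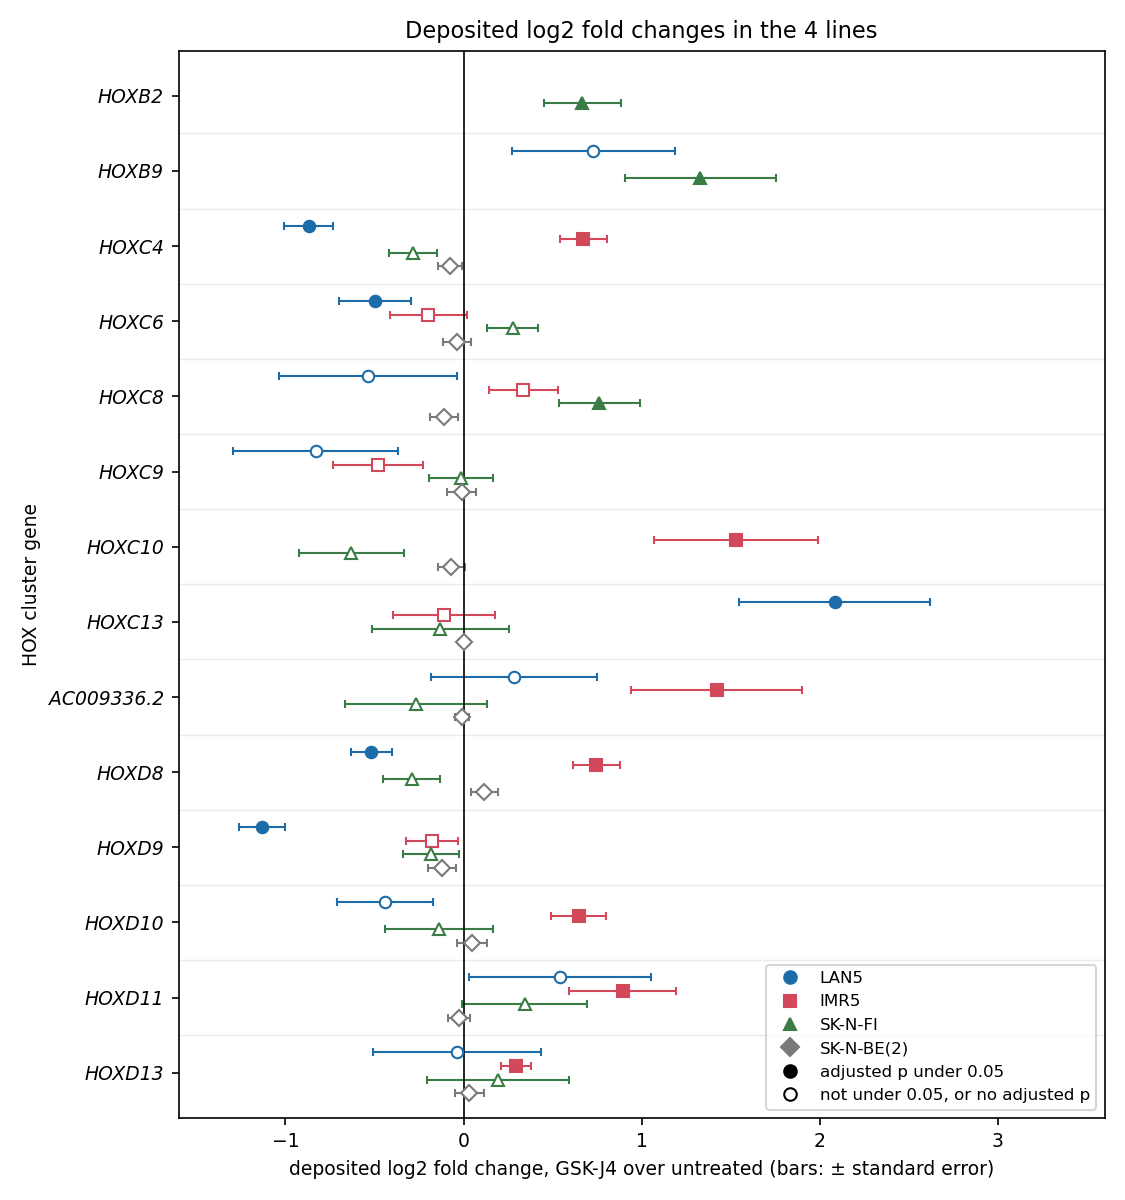
Deposited log2 fold changes, GSK-J4 over untreated (horizontal axis, bars ± SE), of the 14 members that were called in some line or had a mean of at least 100 in one; filled marks have an adjusted p under 0.05. HOXC4 and HOXD8 are filled on the left of 0 for LAN5 and on the right of 0 for IMR5, HOXD9 is filled only for LAN5, and no SK-N-BE(2) mark is filled.

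Across lines, 13 of the 34 rows were called somewhere and 0 were called in all 3 sensitive lines. HOXC4 and HOXD8 were the members called in both LAN5 and IMR5, and in each case the signs were opposite. No test was made of whether members were called at a rate different from that of all genes. The matching shares of all genes across lines were not computed, so these counts are not read as particular to HOX genes.

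**Figure D4:**
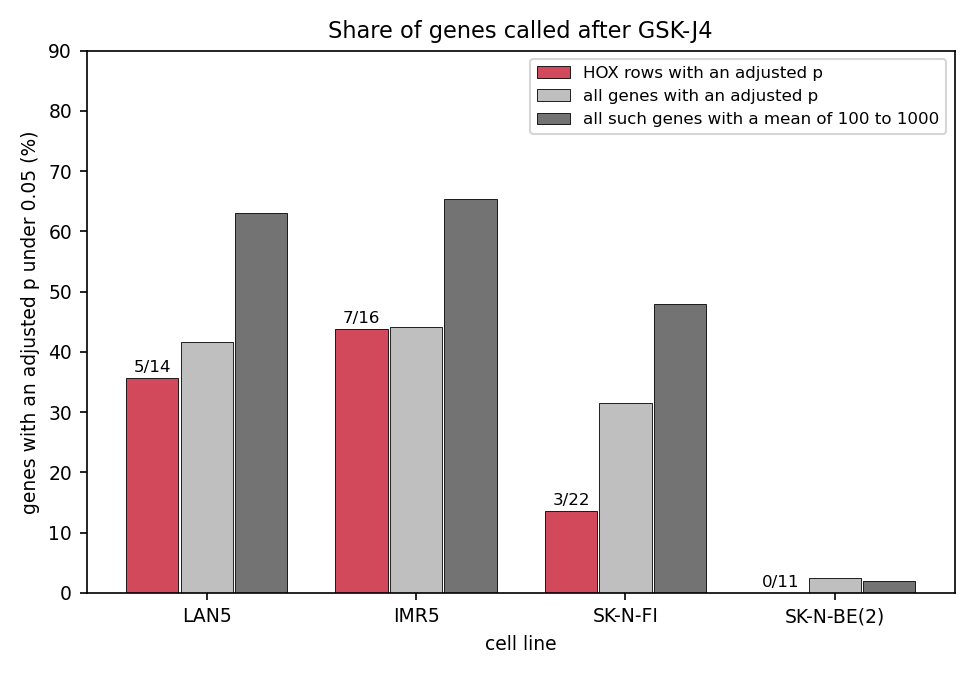
Percent of genes with an adjusted p under 0.05 after GSK-J4 in each line, for HOX rows (red, with the counts above the bars), for all genes with an adjusted p (light grey) and for those with a mean of 100 to 1000 (dark grey). The HOX bar is 35.7% (LAN5), 43.8% (IMR5), 13.6% (SK-N-FI) and 0 (SK-N-BE(2)), beside light grey bars of 41.7%, 44.1%, 31.6% and 2.48%; in the mean range of the dark grey bars, 3 of 3 members were called in LAN5 and 4 of 6 in IMR5.

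To compare the responses of lines, the authors' shrinkage toward 0 was undone for members with a mean of at least 50, and the resulting prior-removed log2 fold changes were compared by a two-sided Wald test of their difference, adjusted over all genes with such means in both tables. The implied mean of each treatment group follows from the overall mean and that fold change, taking both groups as equal in size. HOXC4 had implied means of 159 normalized counts with GSK-J4 and 294 untreated in LAN5, and 358 with GSK-J4 and 223 untreated in IMR5. HOXD8 had 272 with GSK-J4 and 391 untreated in LAN5, and 350.2 with GSK-J4 and 207 untreated in IMR5. HOXD9 had 160.4 with GSK-J4 and 356 untreated in LAN5, and 174 with GSK-J4 and 198 untreated in IMR5. These counts are on scales normalized separately, so they are read within a line.

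**Figure D5:**
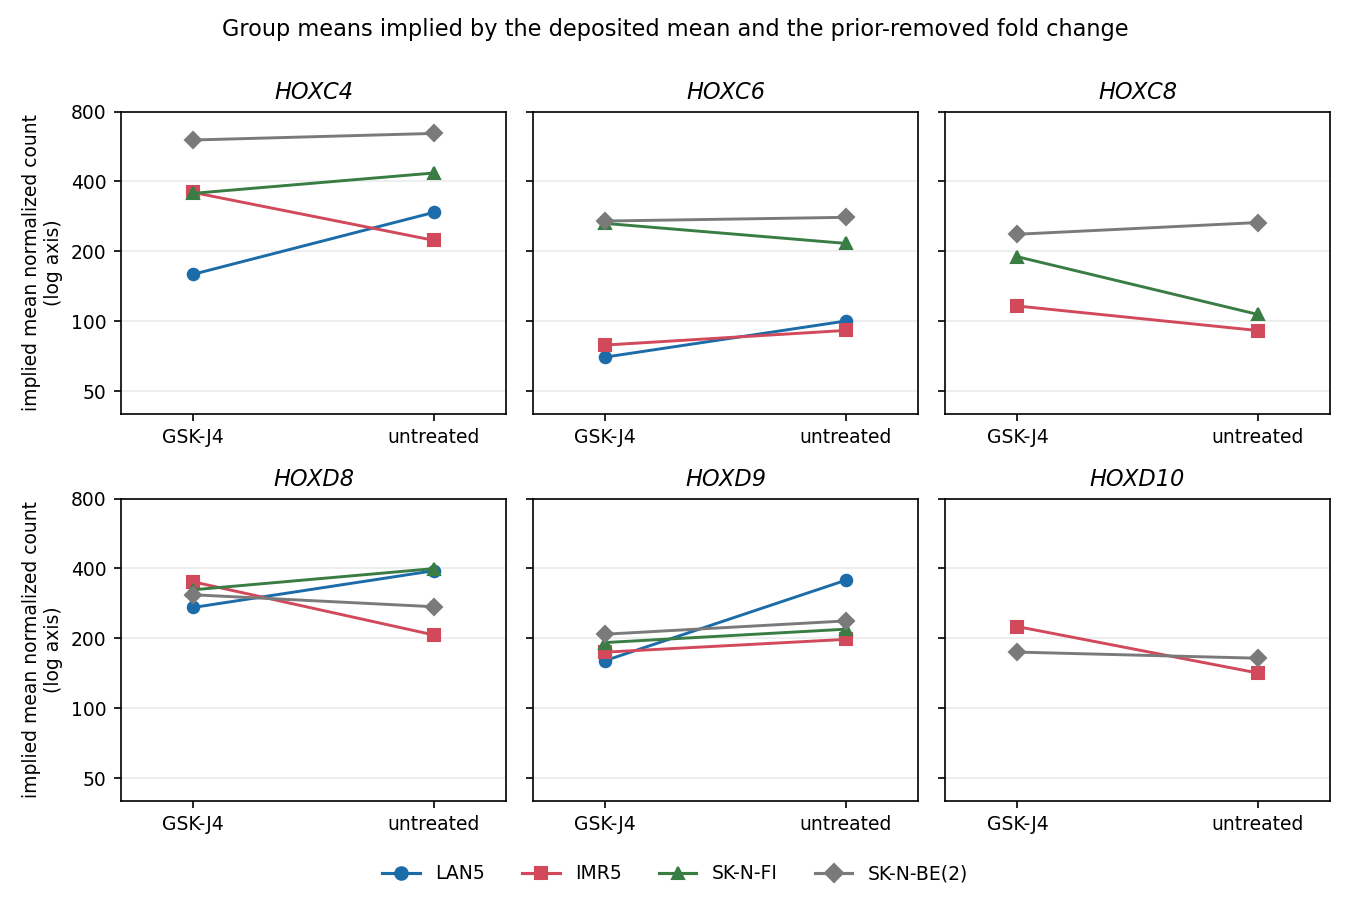
Implied mean normalized count (log axis) with GSK-J4 (left) and untreated (right) of 6 members in the lines where their mean was at least 50, each table on its own scale; lines join the 2 values of a cell line and have no error drawn. HOXC4 and HOXD8 slope up to the right in LAN5 and down in IMR5, and HOXD9 slopes most in LAN5, with 160.4 and 356.

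Between LAN5 and IMR5, 3 of 4 comparable members differed, where 59.2% of all genes compared did. The LAN5 response of HOXC4 was 1.57 log2 units below that of IMR5, a difference of -1.57 ± 0.195 (95% interval -1.95 to -1.19, adjusted p = 1.03e-14). The difference was -1.28 ± 0.177 for HOXD8 (adjusted p = 3.57e-12) and -0.97 ± 0.199 for HOXD9 (adjusted p = 4.76e-06). HOXC6 had a difference of -0.31 with an interval from -0.91 to 0.30.

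Between LAN5 and SK-N-FI, 3 of 4 members differed, against 51.4% of all genes: HOXD9 by -0.96 ± 0.210 (adjusted p = 2.42e-05), HOXC6 by -0.80 ± 0.257 (adjusted p = 0.00494) and HOXC4 by -0.59 ± 0.198 (adjusted p = 0.00704). HOXD8 had a difference of -0.22 with an interval from -0.62 to 0.18. Between IMR5 and SK-N-FI, 2 of 6 differed, against 47.9% of all genes, with 1.06 ± 0.215 for HOXD8 (adjusted p = 5.38e-06) and 0.98 ± 0.193 for HOXC4 (adjusted p = 3.3e-06). For HOXD9 the IMR5 and SK-N-FI responses differed by 0.0089, with an interval from -0.42 to 0.44.

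The last 3 comparisons set a sensitive line against the resistant SK-N-BE(2), and they share that line's table. For LAN5, 3 of 4 members differed, against 58.0% of all genes: HOXD9 by -0.96 ± 0.183 (adjusted p = 6.16e-07), HOXC4 by -0.79 ± 0.163 (adjusted p = 4.57e-06) and HOXD8 by -0.70 ± 0.161 (adjusted p = 4.97e-05). For IMR5, 4 of 8 differed, against 60.5% of all genes: HOXC4 by 0.78 ± 0.157 (adjusted p = 2.71e-06), HOXD8 by 0.59 ± 0.174 (adjusted p = 0.00168), HOXD10 by 0.58 ± 0.218 (adjusted p = 0.0154) and HOXC8 by 0.52 ± 0.235 (adjusted p = 0.0465). For SK-N-FI, 2 of 6 differed, against 42.6% of all genes: HOXC8 by 0.99 ± 0.271 (adjusted p = 0.00114) and HOXD8 by -0.47 ± 0.202 (adjusted p = 0.0452). The difference of HOXD9 was 0.0072 between IMR5 and SK-N-BE(2), with an interval from -0.37 to 0.39. These values rest on how the prior of SK-N-BE(2) was undone: with the other solution of the same equations, 1 of the 4 IMR5 differences and 1 of the 2 SK-N-FI differences remained called, HOXC4 for IMR5 and HOXC8 for SK-N-FI. Differences that lost their call there were 0.56 for HOXD10, 0.67 for HOXC8 and 0.38 for HOXD8 of IMR5 (adjusted p = 0.0785, 0.098 and 0.343) and -0.68 for HOXD8 of SK-N-FI (adjusted p = 0.0985), and HOXC4 for LAN5 moved to -0.49 with an adjusted p of 0.361. With the sign of SK-N-BE(2) turned, HOXC8 for IMR5 and HOXD8 for SK-N-FI moved to 0.18 and -0.13, with adjusted p of 0.509 and 0.624.

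Other transcripts of the clusters were read beside the members. HAGLR, an antisense RNA that overlaps HOXD1, HOXD3 and AC009336.2 (chromosome 2, 176164051 to 176188958 on the minus strand, GRCh38), had a mean of 179 normalized counts in LAN5 in the authors' deposited table and rose there by 0.70 ± 0.162 on the log2 scale with an adjusted p of 7.11e-05. In the same line HOXD8 and HOXD9 of that cluster fell. HAGLR means were 592 for SK-N-BE(2), 611 for SK-N-FI and 317 for IMR5, with deposited log2 fold changes of 0.07, -0.22 and 0.12 in the authors' tables, none of which passed the test. HOXC-AS1, antisense across HOXC6 and HOXC9, rose in IMR5 by 1.505 with an adjusted p of 0.00252, in the authors' deposited table, at 0.566 CPM. MIR10B, a microRNA gene that lies within HOXD3 on the same strand, fell in SK-N-FI by 1.21 ± 0.332 (adjusted p = 0.00142) at a mean of 23.4 in the authors' deposited table, where HOXD3 had 0.0065 ± 0.327. The RNA was polyadenylated, and how reads over that stretch were assigned is not given. Reads of the microRNA gene and of HOXD3 transcripts there cannot be told apart. Of the antisense and intergenic list, 1 of 5 tested was called in LAN5, 1 of 6 in IMR5, 1 of 9 in SK-N-FI and 0 of 4 in SK-N-BE(2). Among all genes tested, 41.7%, 44.1%, 31.6% and 2.48% were called in these lines. At means of 100 to 1000 the shares were 63.1%, 65.4%, 48.0% and 2.03%. These shares stand beside the counts of this list and of each list below. No list was tested against them, so the counts are not read as particular to a list.

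HOX proteins bind DNA with PBX and MEIS partners, of which MEIS1 and MEIS2 fell in each sensitive line. Of 9 listed cofactors, 4 fell and 1 rose among 9 tested in LAN5, 3 fell and 0 rose among 8 in IMR5, 4 fell and 2 rose among 8 in SK-N-FI, and 0 of 7 were called in SK-N-BE(2). MEIS2 fell by 1.82 ± 0.0646 on the log2 scale in LAN5 (adjusted p = 1.69e-171), by 1.03 ± 0.0707 in IMR5 (adjusted p = 2.39e-46) and by 0.36 ± 0.118 in SK-N-FI cells (adjusted p = 0.0095), in the authors' deposited tables. MEIS1 fell by 1.597, 0.69 and 0.69 in LAN5, IMR5 and SK-N-FI per the authors' deposited tables, all with adjusted p of 1.4e-05 or less. PBX3 rose by 0.60 ± 0.089 in SK-N-FI (adjusted p = 2.72e-10) and had -0.07 in LAN5 and 0.02 in IMR5 in the authors' deposited tables. The median over the list was -0.32 in LAN5 cells, -0.09 in IMR5 cells, -0.19 in SK-N-FI cells and -0.01 in SK-N-BE(2) cells, beside 0.093, 0.016, 0.010 and -0.00017 for all genes tested.

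Of the genes that flank the clusters, 5 fell and 2 rose among 11 tested in LAN5, 2 fell and 5 rose among 8 in IMR5, 2 fell and 3 rose among 12 in SK-N-FI, and 0 of 10 were called in SK-N-BE(2). LNPK and MTX2 flank the HOXD cluster on its opposite sides; LNPK encodes an endoplasmic reticulum protein and MTX2 a mitochondrial one. LNPK had -0.34 ± 0.0763 in LAN5 (adjusted p = 3.29e-05), 0.35 ± 0.0687 in IMR5 (adjusted p = 1.2e-06) and 0.66 ± 0.0879 in SK-N-FI (adjusted p = 1.64e-12) in the authors' deposited tables. MTX2 had -0.42 ± 0.0907 in LAN5 (adjusted p = 1.86e-05), 0.44 ± 0.0881 in IMR5 (adjusted p = 2.49e-06) and 0.34 ± 0.149 in SK-N-FI (adjusted p = 0.0678) in the authors' deposited tables. CALCOCO2, an autophagy receptor beside HOXB, rose by 1.07, 1.22 and 0.73 in LAN5, IMR5 and SK-N-FI, and CBX5, the heterochromatin protein beside HOXC, fell by 0.97, 0.27 and 0.59 in the authors' deposited tables.

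Among regulators of HOX transcription, the 29 Polycomb genes had 12 lower and 7 higher in LAN5, 12 lower and 9 higher in IMR5, 6 lower and 8 higher in SK-N-FI, and 1 lower and 0 higher of 28 tested in SK-N-BE(2). RBBP4, a histone-binding subunit, fell by 0.54, 0.42 and 0.52, and RBBP7, its close relative, fell by 0.32, 0.43 and 0.50 in LAN5, IMR5 and SK-N-FI per the authors' deposited tables. The methyltransferase EZH2 fell by 0.71, 0.24 and 0.66 in the same authors' deposited tables, and had -0.13 ± 0.0525 with an adjusted p of 0.279 in SK-N-BE(2). SUZ12, its partner subunit, fell by 0.21 in LAN5 and 0.21 in SK-N-FI and had -0.12 with an adjusted p of 0.0838 in IMR5, in the authors' deposited tables. RYBP, of the variant Polycomb complexes, rose by 0.35 in IMR5 and 0.63 in SK-N-FI and had -0.01 in LAN5 in the authors' deposited tables.

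The 13 Trithorax and MLL complex genes had 5 lower and 2 higher in LAN5, 4 lower and 5 higher in IMR5, 2 lower and 4 higher in SK-N-FI, and 0 called in SK-N-BE(2). KDM6A and KDM6B, the targets of GSK-J4, stood in this list, supplied the 2 rises of LAN5 and were called higher in each sensitive line. Their deposited log2 fold changes were 0.50 and 0.55 in LAN5, 0.41 and 1.17 in IMR5, and 0.39 and 0.83 in SK-N-FI. KMT2A, the MLL methyltransferase that maintains HOX expression, had -0.04, 0.04, -0.39 and 0.04 in LAN5, IMR5, SK-N-FI and SK-N-BE(2) in the authors' deposited tables, and passed the test in none. PSIP1, which tethers MLL to chromatin, fell by 0.51, 0.48 and 0.36 in the authors' deposited tables of the sensitive lines. KMT2C rose by 0.40 in IMR5 and KMT2D fell by 0.21 there, and neither was called in LAN5 or SK-N-FI per the authors' deposited tables.

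Retinoic acid signalling is a classical inducer of HOX clusters, and its genes stood in a list with the ParaHox genes and CTCF. Of that list, 2 rose and 1 fell among 9 tested in LAN5, 5 rose and 1 fell among 7 in IMR5, 1 rose and 3 fell among 7 in SK-N-FI, and 1 rose and 0 fell among 4 in SK-N-BE(2). RARA, a retinoic acid receptor, rose by 0.37, 0.26 and 0.43 in LAN5, IMR5 and SK-N-FI per the authors' deposited tables. RARG, another such receptor, rose by 1.89 ± 0.202 in IMR5 (adjusted p = 1.41e-19) and by 0.28 ± 0.0794 in SK-N-BE(2) (adjusted p = 0.0227), and fell by 0.53 ± 0.126 in SK-N-FI (adjusted p = 0.00019), in the authors' deposited tables. CTCF, the insulator protein that divides HOX clusters, fell by 0.68, 0.80 and 0.27 in the authors' deposited tables of LAN5, IMR5 and SK-N-FI. ALDH1A2, which makes retinoic acid, had a mean of 1168 in SK-N-FI, against 3.85 for LAN5, 1.03 for IMR5 and 2.54 for SK-N-BE(2) in the authors' deposited tables, and fell by 0.45 in SK-N-FI with an adjusted p of 0.000401.

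Homeobox and paired-box genes outside the clusters were set beside the members. Of 91 such genes, 14 rose and 12 fell among 48 tested in LAN5, 23 rose and 13 fell among 63 in IMR5, 5 rose and 12 fell among 42 in SK-N-FI, and 1 rose and 5 fell among 30 in SK-N-BE(2). Their medians were 0.47, 0.44, -0.13 and -0.02, beside HOX medians of -0.47, 0.41, 0.0035 and -0.03 in the same lines. PHOX2A, ISL1 and TLX2 were among those with the highest means and encode transcription factors of neural crest-derived neurons. PHOX2A fell by 1.405 in LAN5 and 0.69 in SK-N-FI, rose by 0.45 in IMR5 and fell by 0.23 in SK-N-BE(2) in the authors' deposited tables. TLX2 fell by 1.36 in LAN5, by 1.23 in SK-N-FI and by 0.24 in SK-N-BE(2), and ISL1 fell by 1.51 in LAN5, by 0.59 in IMR5 cells and by 0.40 in SK-N-FI cells, in the authors' deposited tables. Of 10 neuroblastoma markers, 9 fell and 0 rose among 10 tested in LAN5, 4 fell and 4 rose among 9 in IMR5, 6 fell and 1 rose among 9 in SK-N-FI, and 6 fell and 0 rose among 10 in SK-N-BE(2); their part in the HOX responses was not tested. Of 10 fibroblast and muscle markers, 4 rose and 3 fell among 9 tested in LAN5, 2 rose and 2 fell among 8 in IMR5, 3 rose and 2 fell among 9 in SK-N-FI, and 3 rose and 1 fell among 7 in SK-N-BE(2). Of 8 immune and endothelial markers, 1 rose among 5 tested in LAN5, and 0 were called among 1 tested in IMR5 and 3 in SK-N-FI. The part of both lists in the HOX responses was not tested either.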

How the data were processed

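Polyadenylated RNA of 24 libraries, 3 in each of 8 groups, was made into strand-specific libraries per the labels' protocols. Per the submitters' processing notes, FastQC, STAR, DESeq2 and hg38 were used; versions, annotation, counting tool and contrast direction: not given in the sources used here. Each line has 1 table of the authors' comparison. The signal column is, per the file headers, the authors' mean of normalized counts over a line's libraries, normalized table by table. Fold changes and their SE were deposited on the log2 scale. The Wald statistic is a score deposited by the authors. Raw and adjusted p-values were deposited by the authors. No column of another sample was present, and no value per library was used, so depth is unknown and no count model was fitted here, although the planned design named one for counts.

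Members were matched by symbol and GENCODE 29. Genes with an adjusted p count as tested and those under 0.05 as called. Members and lists were chosen with earlier results of these data known; members called in any line or with a mean of at least 100 in one were described singly (14), and for each of 10 lists values were given for the 4 genes with the highest mean over the tables, some of which are not reported here. The lists are HOX cofactors, HOX antisense and intergenic transcripts, flanking genes, Trithorax and MLL complex, Polycomb, ParaHox and upstream regulators, other developmental homeobox and paired-box genes, neuroblastoma, fibroblast and muscle, and immune and endothelial markers. EZH2, KDM6A, KDM6B, MYCN and PTPRC were named outside that rule after their values were seen, as were the called rows HOXC-AS1 and MIR10B.

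The prior on fold changes was undone with a prior SD of 2 times the table's largest SE; of the 2 solutions, genes above the peak of the SE's running median over 501 genes took that of smaller error; the peak lay at a mean of 3.15 (LAN5), 4.01 (IMR5), 4.66 (SK-N-FI) and 134 (SK-N-BE(2)). Differences between lines were taken over genes whose mean reached 50 in both tables, with a two-sided Wald test and Benjamini-Hochberg adjustment over all of them. Python 3.11.15, pandas 2.3.3, numpy 2.4.6, scipy 1.17.1 and matplotlib 3.10.9 were used. Promoter windows come from RefSeq on GRCh38.p14. Alternatives were other thresholds, adjustment over other genes, centring, other minimum means and deposited in place of prior-removed values.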

Additional observations from a re-analysis of the deposited data

Results flagged for a closer look

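Of 32 differences between lines in the response of a member, 17 passed an adjusted p of 0.05 in the Wald test of the difference, where between 42.6% and 60.5% of all genes did in a pair of lines, so the members were called at about the rate of all genes. They are listed as log2 fold change of the first line minus that of the second, prior removed. Between LAN5 and IMR5 they were -1.57 for HOXC4, -1.28 for HOXD8 and -0.97 for HOXD9. Between LAN5 and SK-N-FI they were -0.59 for HOXC4, -0.80 for HOXC6 and -0.96 for HOXD9. Between IMR5 and SK-N-FI they were 0.98 for HOXC4 and 1.06 for HOXD8. Between LAN5 and SK-N-BE(2) they were -0.79 for HOXC4, -0.70 for HOXD8 and -0.96 for HOXD9. Between IMR5 and SK-N-BE(2) they were 0.78 for HOXC4, 0.52 for HOXC8, 0.59 for HOXD8 and 0.58 for HOXD10. Between SK-N-FI and SK-N-BE(2) they were 0.99 for HOXC8 and -0.47 for HOXD8. Each table enters 3 of the 6 pairs, so these values are not independent of each other.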

How the results depend on the processing

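Of 78 alternatives to the counts and medians, 70 left them in the same direction and within 1.5 times for counts. With the prior removed, the median over members was 0.62 in IMR5, over 1.5 times the 0.41 of deposited values, and -0.05 in SK-N-BE(2), against -0.03; values near 0 in SK-N-FI also shifted in ratio. With a log2 fold change of at least 1 in size, LAN5 had 2 called members, IMR5 had 2 and SK-N-FI had 1. Among members with a mean of at least 50 only, an alternative added after seeing the data, 4 were called in IMR5. At a mean of at least 50, 4 members counted as expressed in LAN5 and 7 in SK-N-FI. With the other solution for SK-N-BE(2), also added after seeing the data, 1 member differed between IMR5 and SK-N-BE(2) and 1 between SK-N-FI and SK-N-BE(2). The lost differences of HOXD10 (0.56) and HOXC8 (0.67) in IMR5 and of HOXD8 (-0.68) in SK-N-FI stayed about as large or grew. Those of HOXD8 in IMR5 (from 0.59 to 0.38) and of HOXC4 in LAN5 (from -0.79 to -0.49) shrank. The cause of these changes was not tested beyond the stricter limits themselves. For single members and differences, 132 of 142 alternatives kept the call, 10 lost it and 0 reversed. HOXC6 in LAN5 lost its call at an adjusted p under 0.01 and when centred. The HOXC8 difference between IMR5 and SK-N-BE(2) lost it with deposited values (0.45, adjusted p = 0.0514), and the other 7 losses came with the other solution or the turned sign of SK-N-BE(2). No paired analysis was possible because the files hold no values of single libraries, and for the same reason no library was left out and no other count model was run. Members with means near 5 to 10, such as HOXC13, HOXB9 and AC009336.2, are limited by low counts.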
